A study of Mus musculus with 8 samples.

Results

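Myeloid cells that carry MHC class II on their surface (MHCII+ cells) were compared with 2 MHCII-CD64+ populations of the mouse conjunctiva, the mucous membrane that lines the eyelids and covers the white of the eye. The MHCII-CD64+ populations had intermediate Ly6C (Ly6C-inter) or low Ly6C (Ly6C-low), and the study called the Ly6C-low cells macrophages. The comparison used the samples whose labels give these populations, 6 of the 8 in the series. These were 1 MHCII+, 1 Ly6C-inter and 1 Ly6C-low sample from non-stressed (NS) mice and the same 3 from mice after 5 days of desiccating stress (DS). The mice were female C57BL/6J of 10 weeks per the labels, and no group carried a deletion, a transgene or a transplant. NS mice stayed in ordinary humidity without a draft, and DS mice received scopolamine, which blocks tear secretion, in the drinking water and a fan-blown draft in dry air. Every sample was 1 pool of cells from both conjunctivae of 20 mice. Live CD45+ CD11b+ cells were sorted after removal of cells positive for NK1.1, Ly6G, CD3e or CD45R/B220. The MHCII+ gate was not restricted to CD64+ cells, so it could hold macrophages, dendritic cells and other CD11b+ cells. Ly6C-high monocytes, the 2 remaining samples, were left out of the comparison.

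MHC class II molecules show peptides from engulfed material to CD4+ T cells. Each molecule pairs an alpha and a beta chain. The invariant chain (Cd74) blocks the groove during assembly, and the DM proteins exchange the invariant chain fragment for antigen peptides. Monocytes that enter a tissue through the chemokine receptor CCR2 can become macrophages, and tissue macrophages are commonly told apart by how much MHC class II and CCR2 they carry.

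MHC class II genes share promoter elements that are read by a common set of factors. One of them is the Y box, here searched as the letters CTGATTGG on both strands in the 250 bases before each gene's start. The promoters of H2-Aa (alpha chain) and H2-Eb1 (beta chain) are shown because both genes were among those with the largest difference and both held these letters. The sequences are RefSeq's for GRCm38.p6, 5′ to 3′ on the gene's strand, with the match in capitals.
H2-Aa, chr17:34287824-34288073, minus strand, match 51 to 44 bases before the start: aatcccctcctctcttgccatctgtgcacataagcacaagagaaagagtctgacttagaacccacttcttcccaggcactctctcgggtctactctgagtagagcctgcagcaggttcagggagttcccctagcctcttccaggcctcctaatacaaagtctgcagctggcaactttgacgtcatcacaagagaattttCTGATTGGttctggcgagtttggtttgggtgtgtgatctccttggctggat
H2-Eb1, chr17:34305617-34305866, plus strand, match 62 to 55 bases before the start: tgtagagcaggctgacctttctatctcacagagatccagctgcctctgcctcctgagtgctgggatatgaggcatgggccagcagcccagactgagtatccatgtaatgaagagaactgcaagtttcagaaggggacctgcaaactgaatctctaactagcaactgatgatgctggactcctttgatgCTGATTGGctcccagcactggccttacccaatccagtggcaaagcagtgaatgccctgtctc
Of the 10 measured genes on the list of MHC class II presentation, 6 had an entry (H2-Aa, H2-Eb1, H2-DMa, H2-DMb1, Cd80 and Ctss) and 2 held the letters. Over all 32851 windows of the table, 1258 (3.83%) held them on either strand. H2-Ab1, Cd74, Cd86 and Cd40 are named only. A match is a description of the letters in the window.

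The nCounter assay counts fluorescent barcodes bound to target RNA, without amplification. The table held 754 genes and 8 negative control probes with no target, and its smallest value was 1. A gene was taken as measured above background in a sample when its count exceeded the mean + 2 SD of that sample's negative control probes, a limit between 11.2 and 23.0 counts. The MHCII+ samples were by far the better measured, with totals of 39677 (NS) and 30335 (DS) counts over all genes and 291 and 213 genes above the limit. The Ly6C-inter totals were 5948 (NS) and 14201 (DS) and the Ly6C-low totals 5799 and 4056, with 64 to 110 genes above the limit. The mean negative control count times 754 genes came to 8.08% and 14.6% of the total in the MHCII+ samples and to between 44.5% and 109% in the Ly6C samples, so background made up much of the Ly6C totals. Fewer cells and less RNA per cell cannot be told apart in these pools. The DS Ly6C-inter sample stood apart from the other Ly6C samples, with 28.3% of its counts in 5 genes (Emp1, S100a11, S100a10, Ly6c1 and Dusp1). The 5 highest genes held 8.90% to 12.1% in the other Ly6C samples and 37.9% (NS) and 36.5% (DS) in the MHCII+ samples.

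Counts were scaled to equal totals over the 754 genes, and 309 genes above the limit in at least 1 of the 6 samples were compared. With 1 pool per population and condition, each gene gave 4 ratios of MHCII+ cells over a Ly6C population, 2 within NS and 2 within DS, which share the MHCII+ pools. The fold rule asked for a log2 ratio of at least 2 in the same direction in all 4, and it carries no test. It also asked for counts above the limit on the higher side. These were both MHCII+ samples for a higher call and all 4 Ly6C samples for a lower call. The fold rule found 7 genes higher in MHCII+ cells (2.27% of 309), namely H2-Aa, H2-Ab1, H2-Eb1, H2-DMa, Cd74, Ccr2 and Fn1. It found 0 lower (0%), which does not mean that no gene had such ratios. Alox15, Ly6c1, Ifit1bl1, F11r, Pglyrp1 and S100a9 had them in all 4 pairs without meeting the limit (Alox15 from -6.17 to -3.93). The 95% interval of the ratio, which covers counting error only, lay above 0 in all 4 pairs for 16 genes (5.18%) and below 0 in all 4 for 8 genes (2.59%). In edgeR's quasi-likelihood test over the 6 samples, with condition as a block, 16 genes were higher (5.18%) and 16 lower (5.18%) at an adjusted p under 0.05, and 68 genes had an unadjusted p under 0.05. In that fit the NS and DS pools, and the Ly6C-inter and Ly6C-low pools, took the place of replicates, so its p-values describe these 6 pools and not the spread between mice. The numbers of higher and lower genes depended on the scaling. They were 19 and 7 with TMM, 20 and 11 with DESeq2 size factors, and 227 and 1 when samples were scaled to the spiked positive controls, which moved the median log2 ratio of all 309 genes from -0.34 to 2.25. All edgeR and ratio values below therefore compare shares of a sample's counts, and they are not centred on the median of all genes, which was -0.34 for the mean log2 ratio and -0.41 for the edgeR log2 fold change.

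The markers of the comparison mostly bore out the labels. Every log2 ratio of H2-Aa and Cd74 was at least 3.83 in favour of MHCII+ cells, while Adgre1 (F4/80, a macrophage surface receptor) was measured above the limit in all 6. Adgre1 counts were 96 and 74 in the NS and DS MHCII+ samples, 37 and 26 in the Ly6C-inter samples and 66 and 30 in the Ly6C-low samples. As a share of the total, Adgre1 in MHCII+ cells was below 3 of the 4 Ly6C samples and slightly above DS Ly6C-inter, with log2 ratios of -1.36 and -2.23 in NS and 0.41 and -1.60 in DS (edgeR log2 fold change -1.34 ± 0.68 SE, adjusted p = 0.272). Its direction turned with the scaling, to a log2 fold change of 1.34 (adjusted p = 0.047) with the positive controls. Without the DS Ly6C-inter sample Adgre1 was lower in MHCII+ cells, with a log2 fold change of -1.75 (adjusted p = 0.00869 by edgeR). In that fit 38 of 300 genes were lower and the median log2 fold change was -0.50, against 16 of 309 and -0.41 with all 6 samples. Fcgr1, which encodes the CD64 of the sort, had 33 and 22 counts in MHCII+ cells and 3 to 9 in the Ly6C samples, all of the latter at or under the limit, so CD64 RNA could not be checked in the cells sorted for it.

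The sum of the 10 MHC class II presentation genes took 31.3% of all counts in NS MHCII+ cells and 31.1% in DS MHCII+ cells, against 1.23% to 2.51% in the 4 Ly6C samples. All 10 genes were above the limit in both MHCII+ samples and 2 to 4 of them in each Ly6C sample. By edgeR 6 of the 10 were higher and 0 lower, beside 5.18% each way of all 309 genes. The median of the mean log2 ratio was 3.02 for the list against -0.34 for all 309 genes. The cells were sorted on the MHC class II protein, so the direction of its genes is a check of the sort and not a separate finding.

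**Figure D1:**
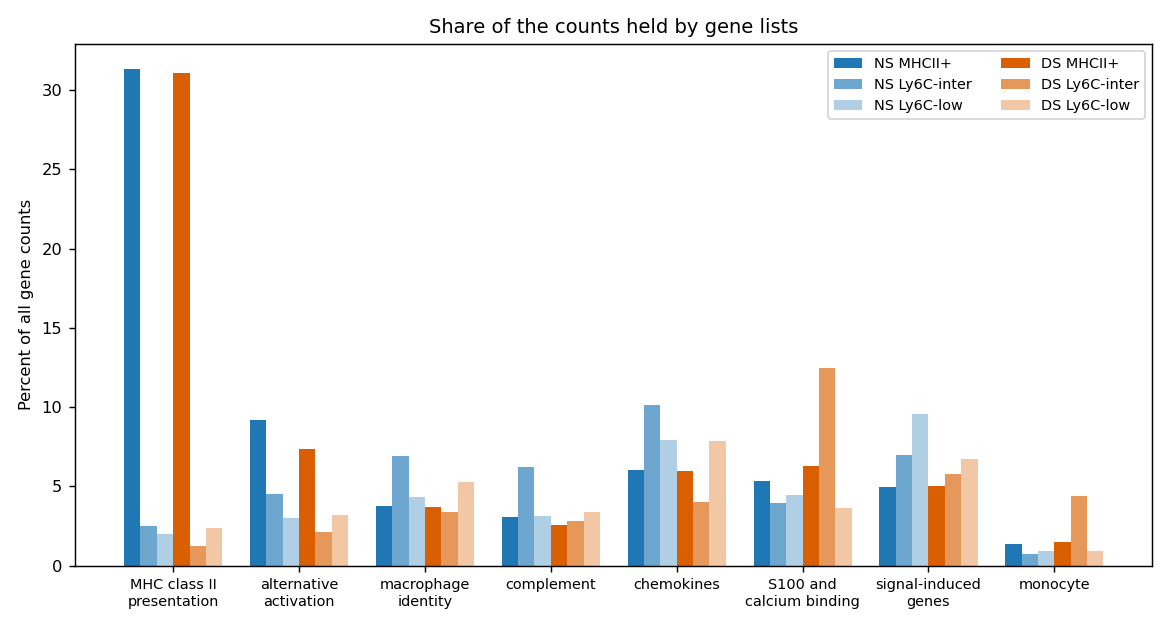
Percent of all gene counts (vertical axis, linear from 0) held by the summed genes of 8 lists (horizontal axis) in each of the 6 pooled samples, 1 bar per sample with no replicate error. The MHC class II list holds 31.3% and 31.1% in the MHCII+ samples and at most 2.51% in the Ly6C samples, and the tall S100 bar (12.5%) is DS Ly6C-inter.

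The classical alpha and beta chain genes had the largest edgeR log2 fold changes of the higher genes. H2-Aa was counted 3419 and 2635 times in NS and DS MHCII+ cells, 16 and 21 times in Ly6C-inter cells and 14 and 12 times in Ly6C-low cells. Only the NS Ly6C-inter count of H2-Aa was above its sample's limit among the Ly6C samples, and no MHCII+ value came near a Ly6C value. The 4 log2 ratios of H2-Aa lay between 4.88 and 5.88, and their 95% intervals between 4.07 and 6.57 (edgeR log2 fold change 5.21 ± 0.56 SE, adjusted p = 1.82e-05). H2-Ab1, a beta chain, had 2075 and 1574 counts in MHCII+ cells, 5 and 7 in Ly6C-inter cells and 8 and 6 in Ly6C-low cells, and all 4 Ly6C counts were background. Its log2 ratios were 5.13 to 6.72 (edgeR 5.72 ± 0.61 SE, adjusted p = 1.82e-05). H2-Eb1, the other beta chain, had 1054 and 787 counts in MHCII+ cells and 1 to 3 in every Ly6C sample. Its log2 ratios of 5.13 to 7.27 had wide 95% intervals, which spanned 3.58 to 12.6 (edgeR 6.15 ± 0.66 SE, adjusted p = 1.82e-05). With the Ly6C count raised to its sample's limit the log2 ratios of H2-Aa, H2-Ab1 and H2-Eb1 were still at least 4.82, 4.07 and 3.07.

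Cd74, the invariant chain, was the one gene of this group measured above the limit in all 6 samples. It had 5212 and 3967 counts in MHCII+ cells, 55 and 66 in Ly6C-inter cells and 24 and 29 in Ly6C-low cells. Cd74 took 13.1% of all counts in both MHCII+ samples, and its level differed little between NS and DS MHCII+ cells, with scaled counts of 2190 and 2180. The log2 ratios were 3.83 and 4.99 in NS and 4.81 and 4.19 in DS (edgeR 4.39 ± 0.55 SE, adjusted p = 9.17e-05). The peptide exchange genes had the same direction. H2-DMa had 186 and 119 counts in MHCII+ cells and 2 to 4 in the Ly6C samples, with log2 ratios of 2.41 to 4.21 (edgeR 3.25 ± 0.64 SE, adjusted p = 0.00564). H2-DMb1 had 104 and 70 counts against 2 to 3 (edgeR 2.69 ± 0.67 SE, adjusted p = 0.0212), and H2-DMb2, which is not on the list, 59 and 43 against 1 to 2 (edgeR 2.98 ± 0.67 SE, adjusted p = 0.0131). H2-DMb1 and H2-DMb2 are near-identical copies, and whether each probe reads its own gene alone is not given in the sources used here.

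The other 4 genes of the list, for costimulation and for processing the invariant chain, did not pass the test. Cd86, a ligand of CD28 on T cells, had 56 and 36 counts in MHCII+ cells, 16 and 9 in Ly6C-inter cells and 5 in each Ly6C-low sample, and its 4 log2 ratios lay on both sides of 0, from -0.93 to 0.91. Cd80, the other CD28 ligand, had 29 and 23 counts in MHCII+ cells and 8 to 37 in the Ly6C samples, with log2 ratios from -3.13 to 0.43. Cd40, the receptor for the T cell signal CD40 ligand, had 19 and 22 counts against 1 to 6. Ctss, the protease that trims the invariant chain, had 283 and 205 counts in MHCII+ cells and 12 to 50 in the Ly6C samples, with log2 ratios from 0.24 to 1.19. Their adjusted p by edgeR ran from 0.164 to 0.98. Cd83, which lies outside the list and marks activated antigen-presenting cells, had 267 and 218 counts against 12 to 21, with all 4 intervals above 0 and log2 ratios of 0.93 to 2.97, and did not pass the edgeR threshold either (adjusted p = 0.116).

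Outside antigen presentation, 9 genes were higher by edgeR. Ccr2, the receptor for Ccl2 that brings monocytes into tissue, had 202 and 190 counts in NS and DS MHCII+ cells, 1 and 7 in Ly6C-inter cells and 1 in each Ly6C-low sample. Every Ly6C count of Ccr2 was at background, and the MHCII+ samples were clear of it. The log2 ratios were 4.92 and 4.88 in NS and 3.67 and 4.67 in DS, with lower interval limits of at least 2.17 (edgeR 4.28 ± 0.64 SE, adjusted p = 0.000500). With the Ly6C counts raised to the limit these ratios were 0.90 to 1.95, so the background level leaves the size of the difference uncertain. Fn1, fibronectin, an adhesive protein of the matrix, had 246 and 199 counts in MHCII+ cells, 8 and 3 in Ly6C-inter cells and 8 and 1 in Ly6C-low cells. Its log2 ratios were 2.20 and 2.17 in NS and 4.96 and 4.73 in DS (edgeR 3.41 ± 0.68 SE, adjusted p = 0.00564), all 4 Ly6C counts being at or under the limit. Ccr2, Fn1 and the class II genes H2-Aa, H2-Ab1, H2-Eb1, H2-DMa and Cd74 made up the 7 genes of the fold rule. With Ly6C counts raised to the limit, 4 of the 7 (H2-Aa, H2-Ab1, H2-Eb1 and Cd74) kept a log2 ratio of 2 in every pair, while Ccr2, Fn1 and H2-DMa did not.

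Retnla, a secreted protein of alternatively activated macrophages, was abundant in the counts of every sample. It had 3144 and 1887 counts in MHCII+ cells, 124 and 114 in Ly6C-inter cells and 88 and 55 in Ly6C-low cells, all above the limit. The MHCII+ samples held a larger share than any Ly6C sample, with scaled counts of 1321 (NS) and 1037 (DS) against 134 to 348. The log2 ratios were 1.93 and 2.38 in NS and 2.95 and 2.20 in DS (edgeR 2.34 ± 0.51 SE, adjusted p = 0.0118), so Retnla missed the fold rule in 1 of 4 pairs. Of the 9 alternative activation genes compared, Retnla was the 1 higher by edgeR and 0 were lower, beside 5.18% each way of all genes, and the median of the list was -0.76. Mrc1 (mannose receptor) had 186 and 151 counts in MHCII+ cells and 23 to 47 in the Ly6C samples, with log2 ratios from -0.62 to 0.59. Cd163, a hemoglobin scavenger receptor, had log2 ratios from -1.20 to -0.36 and Ccl24, an eosinophil-attracting chemokine, from -1.42 to -0.23, and neither passed the edgeR threshold.

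Crip1, a small LIM-domain protein, was above the limit in all 6 samples. It had 1196 and 1018 counts in MHCII+ cells, 75 and 61 in Ly6C-inter cells and 65 and 39 in Ly6C-low cells, with log2 ratios of 1.26 to 2.97 (edgeR 1.84 ± 0.54 SE, adjusted p = 0.0431). S100a4, a calcium-binding protein, had 387 and 373 counts against 14 to 33, and its 4 intervals lay above 0 with an adjusted p of 0.0640 by edgeR. The other higher genes were chosen for naming after their values were seen, and their Ly6C counts were all at or under the limit. They were Ear3, a ribonuclease with close paralogs (157 and 155 counts in MHCII+ cells, 3 to 7 in the Ly6C samples), Mpeg1, a pore-forming protein of phagocytes (147 and 98 against 4 to 7), and Lpl, lipoprotein lipase (101 and 97 against 2 to 8). Il6, an inflammatory cytokine, had 47 and 62 counts against 1 to 9. Mmp12, the macrophage elastase, had 17 and 44 counts against 1 to 2, so NS MHCII+ cells lay close to background for it. The edgeR log2 fold changes of these 5 genes were 2.60, 2.18, 2.12, 2.07 and 2.41, with adjusted p from 0.0212 to 0.0416. Il1rn, the natural inhibitor of the IL-1 receptor, had 109 and 108 counts against 2 to 23, with all 4 intervals above 0 and an adjusted p of 0.104 by edgeR.

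**Figure D2:**
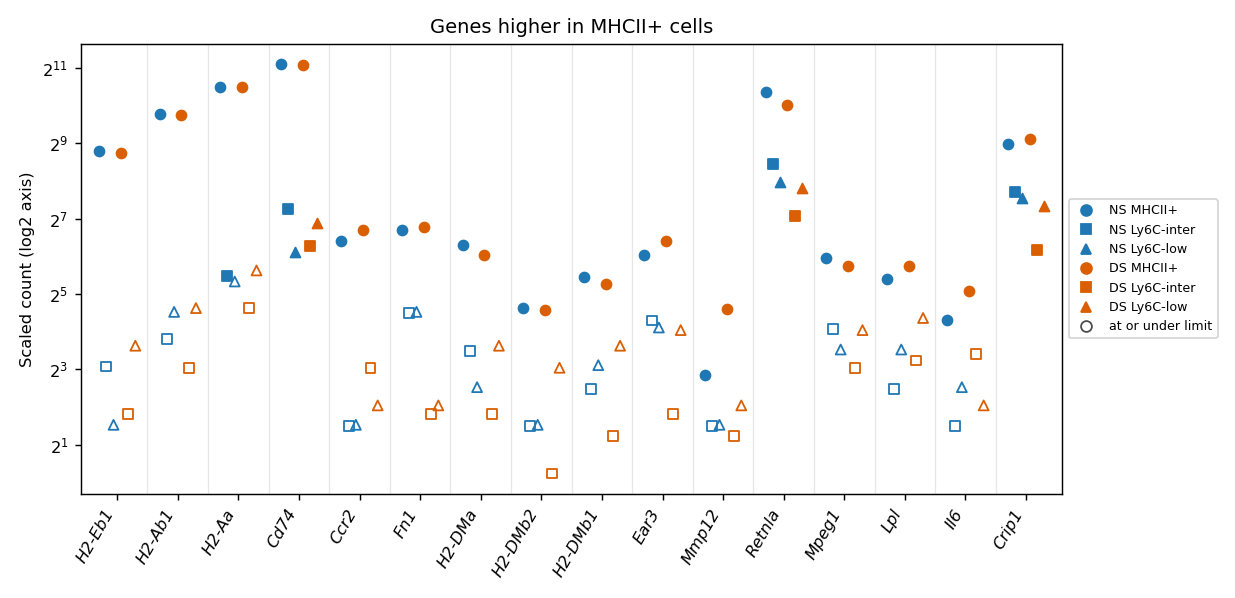
Scaled counts (log2 axis) of the 16 genes higher in MHCII+ cells by edgeR, with 1 point per pooled sample (circles MHCII+, squares Ly6C-inter, triangles Ly6C-low, blue NS, orange DS) and open symbols at or under that sample's negative control limit. In all 16 genes both circles lie above the squares and triangles of their own condition, and for 12 genes all 4 Ly6C symbols are open.

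All 16 higher genes were above the limit in both MHCII+ samples, 13 also had all 4 intervals above 0, and 12 had no Ly6C count above the limit. With Ly6C counts raised to the limit, 11 of the 16 still had a log2 ratio above 0 in every pair. H2-Aa, H2-Ab1, H2-Eb1, Cd74 and Ccr2 were called in all 15 edgeR and DESeq2 fits run and in all 20 settings of the fold rule. These 5 were also the only higher calls when the NS Ly6C-inter or the DS MHCII+ sample was left out, so the calls of the other 11 genes rest on having both of those samples. Without the NS Ly6C-low sample 6 higher calls were made, Fn1 being the additional one. For Ccr2, the fold rule setting that raised every value under the limit before scaling also raised the totals, and its log2 ratios were 2.06 to 2.52. With the Ly6C counts alone raised, as given above, Ccr2 did not keep a log2 ratio of 2.

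Of the 10 macrophage identity genes compared, 6 to 8 were above the limit in each Ly6C sample and 9 to 10 in the MHCII+ samples. By edgeR 0 were higher and 0 lower, beside 5.18% each way of all 309 genes, so a count of 0 among so few genes is near the background. Without the DS Ly6C-inter sample Adgre1 was lower, as given above. The median of the mean log2 ratio was -0.27 against -0.34 for all genes. Apoe, a lipid carrier of tissue macrophages, had 469 and 329 counts in MHCII+ cells, 141 and 187 in Ly6C-inter cells and 54 and 60 in Ly6C-low cells, all far above the limit. In shares the MHCII+ samples lay among the Ly6C samples, with log2 ratios of -1.0, 0.34, -0.28 and -0.45. Csf1r, the receptor for the macrophage growth factor, had 118 and 86 counts against 12 to 34, with log2 ratios from -0.94 to 0.29. Cd14, the co-receptor for lipopolysaccharide, had 234 and 189 counts against 12 to 35, with log2 ratios from 0.00 to 1.71. Mertk, a receptor for the uptake of dying cells, had 15 counts in NS MHCII+ cells and 1 to 4 in each of the 5 other samples, and was above the limit in the first alone.

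C1qa, C1qb and C1qc encode the chains of C1q, which starts the classical complement pathway and is made by tissue macrophages. C1qb had 404 and 241 counts in MHCII+ cells, 117 and 100 in Ly6C-inter cells and 46 and 27 in Ly6C-low cells, with log2 ratios of -0.95, 0.36, 0.17 and 0.26. For C1qa and C1qc the log2 ratios lay from -0.80 to 0.33 and from -1.07 to 0.13. For each of the 3 chains the NS Ly6C-inter sample held the largest share of the 6. C3ar1, a receptor for the C3a fragment, had 130 and 109 counts in MHCII+ cells and 27 to 50 in the Ly6C samples, with log2 ratios from -1.14 to 0.03. None of the 7 complement genes passed the edgeR threshold, a count near the 5.18% each way of all genes, and their median was -0.46. A p that misses the threshold does not show that the levels are alike, and the edgeR standard error for C1qb was 0.56 on the log2 scale.

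**Figure D3:**
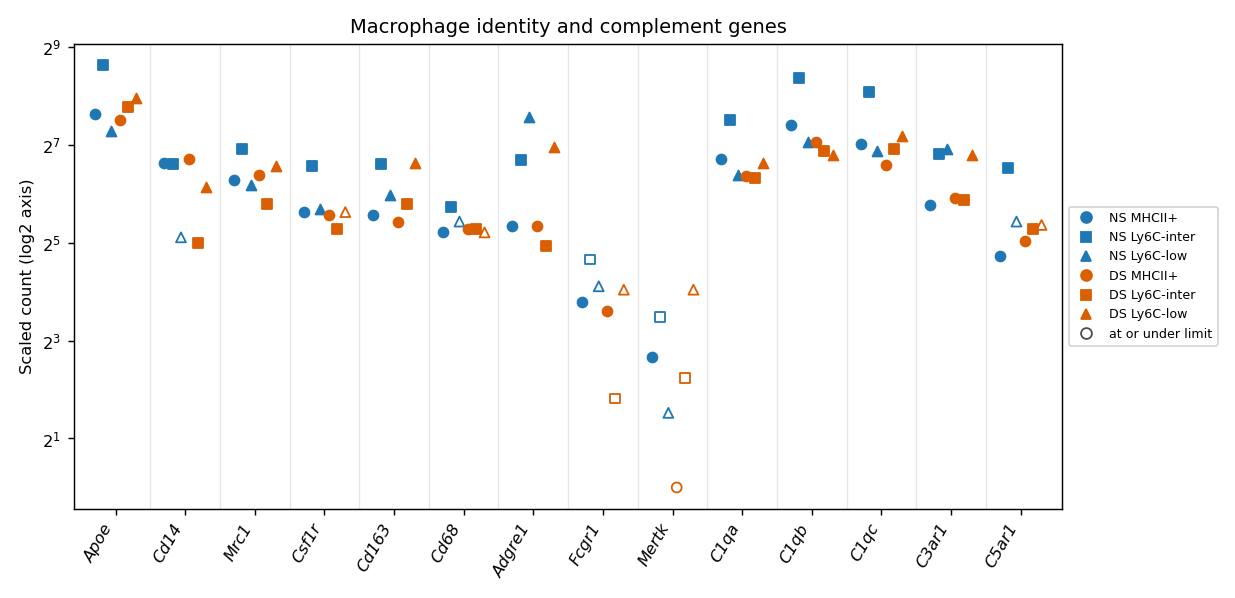
Scaled counts (log2 axis) of 9 macrophage identity and 5 complement genes, with 1 point per pooled sample (circles MHCII+, squares Ly6C-inter, triangles Ly6C-low, blue NS, orange DS) and open symbols at or under the negative control limit. The circles fall among or below the squares and triangles for most genes, and Fcgr1 and Mertk are near background in the Ly6C samples.

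Lists of other cell types the gates could hold were mostly at background. Of the dendritic cell list 4 of 8 measured genes were kept. Of these, 4 were above the limit in NS MHCII+ cells, 1 in DS MHCII+ cells and 0 in any Ly6C sample. By edgeR 0 of the 4 passed the threshold, beside 5.18% each way of all genes. A count of 0 among so few genes is near the background. The list held 0.252% and 0.277% of the counts in MHCII+ cells and 0.162% to 0.518% in the Ly6C samples. Irf4, a transcription factor of a dendritic cell subset and of activated macrophages, had 34 counts in each MHCII+ sample and 2 to 7 in the Ly6C samples. Ccr7 and Irf8, also compared, had log2 ratios on both sides of 0, from -0.42 to 1.13 and from -2.10 to 1.71. Itgax, the CD11c integrin, had 12 and 8 counts against 2 to 5, while Flt3 (7 counts at most), Xcr1 (5) and Clec9a (6), which define dendritic cells or a subset of them, were at or under the limit in all 6 samples. No gene of the lymphocyte and NK cell list (2 measured) or of the epithelial, stromal and endothelial list (7 measured) was above the limit in any sample. Cdh1, the epithelial cadherin, reached 16 counts in DS Ly6C-inter cells against 1 to 4 in the other 5.

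On the monocyte list Ccr2 and Fn1 were higher and Ly6c1 was lower by edgeR, of 4 genes compared, beside 5.18% each way of all genes. Nr4a1, a transcription factor of patrolling monocytes, had 95 and 56 counts in MHCII+ cells and 13 to 24 in the Ly6C samples. It did not pass the edgeR threshold (adjusted p = 0.619). Among 17 chemokines compared 0 were higher and 0 lower, beside 5.18% each way of all genes, with a median of -0.21. Ccl2, the ligand of CCR2, had 562 and 369 counts in MHCII+ cells, 182 and 152 in Ly6C-inter cells and 57 and 58 in Ly6C-low cells, and its log2 ratios lay on both sides of 0 (-1.11, 0.53, 0.18 and -0.23). Ccl9, a chemokine of myeloid cells, had 606 and 510 counts in MHCII+ cells and 79 to 159 in the Ly6C samples. Cxcl2, a neutrophil attractant, had 300 and 321 against 52 to 87. The edgeR log2 fold changes of these 2 genes were 0.00 and -0.26.

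Il1b, an inflammatory cytokine, had 319 and 290 counts in MHCII+ cells, 25 and 11 in Ly6C-inter cells and 39 and 17 in Ly6C-low cells. Its log2 ratios ran from 0.26 to 3.63, the largest of them against DS Ly6C-inter, and it did not pass the edgeR threshold (adjusted p = 0.264). None of the 7 IL-1 family and inflammasome genes compared passed it, and the counts that follow stand beside the same 5.18% each way of all genes. The count was 0 of 12 for signal-induced genes such as Dusp1, a phosphatase that ends MAP kinase signals (898 and 702 counts in MHCII+ cells, 109 to 411 in the Ly6C samples, log2 ratios from -0.82 to -0.22). It was also 0 of 9 for interferon, IRF and STAT genes, 0 of 9 for Fc, pattern recognition and scavenger receptors, 0 of 5 for cathepsins and lysosomal genes and 0 of 11 for reference genes. For integrins and adhesion it was 0 higher and 1 lower (Itgal) of 10, for growth factors and cytokine receptors 1 higher (Il6) and 1 lower (Vegfa) of 12, and for metalloproteinases and matrix 2 higher (Fn1 and Mmp12) of 6. Of 6 S100 and calcium-binding genes 1 was higher (Crip1) and 1 lower (S100a9), and of 7 chemokine receptors 1 was higher (Ccr2) and 1 lower (Ccr3).

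The 16 genes lower in MHCII+ cells by edgeR were of another kind. In all 16 the scaled value was lower than in both Ly6C samples of its condition, and 3 had all 4 intervals below 0. The scale factors were 0.42 and 0.55 for the MHCII+ samples and 1.17 to 4.11 for the Ly6C samples. Equal raw counts therefore gave a lower scaled value in MHCII+ cells. None of the 16 was above the limit in all 4 Ly6C samples, 9 were above it in 1 of the 6 samples alone, and in 13 neither MHCII+ count was above it. The DS Ly6C-inter sample had the highest scaled value for 6 of them, NS Ly6C-low for 8 and DS Ly6C-low for 2. The negative control probes, which have no target, moved the same way. All 8 had lower scaled values in MHCII+ cells in all 4 pairs, with a median log2 ratio of -2.41. Its part in these 16 calls was not tested. Scaled to the positive controls, 1 gene (Alox15) was lower by edgeR. Outside the markers and lists, the lower genes were chosen for naming after their values were seen.

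In the DS Ly6C-inter sample, 6 of the lower genes were concentrated. Ly6c1, which encodes a form of the Ly6C antigen and has a near-identical neighbour, was counted 583 times there, 8, 7 and 14 times in the NS Ly6C-inter, NS Ly6C-low and DS Ly6C-low samples and 6 and 2 times in the MHCII+ samples. The sample sorted for intermediate Ly6C thus held far more Ly6c1 than Ly6C-high monocytes, with 8 (NS) and 16 (DS) counts. Pglyrp1, a bactericidal protein of neutrophil granules, had 196 counts in DS Ly6C-inter and 1 to 5 in the other 5, and Ifit1bl1, of the interferon-induced Ifit family, had 277 against 2 to 5. Pdzk1ip1, a small membrane protein, had 95 against 1 to 3, and F11r, a protein of tight junctions, had 92 against 1 to 6. S100a9, a calprotectin subunit of neutrophils and monocytes, had 55 counts in DS Ly6C-inter, 16 in NS Ly6C-inter, 4 and 1 in the Ly6C-low samples and 1 in both MHCII+ samples. Its edgeR log2 fold change was -5.77 ± 1.14 SE (adjusted p = 0.00564). The neutrophil list as a whole held 0.0680% and 0.0758% of the counts in MHCII+ cells and 0.276% to 0.620% in the Ly6C samples, S100a9 being the 1 of its 10 measured genes above any limit. With the DS Ly6C-inter sample left out 38 genes were lower and 18 higher by edgeR.

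Emp1, S100a11 and S100a10 took the most counts of DS Ly6C-inter and did not pass the edgeR threshold. Emp1, a membrane protein of epithelia and other cells, had 1436 counts in DS Ly6C-inter, 28 to 51 in the other Ly6C samples and 97 and 75 in MHCII+ cells. S100a11, a calcium-binding protein, had 891 against 46 to 109 and against 165 and 158. Both had log2 ratios under -1 in all 4 pairs, from -5.35 to -1.03 for Emp1 and from -3.59 to -1.12 for S100a11 (adjusted p = 0.119 and 0.0640 by edgeR). S100a10, the partner of annexin A2, had 696 counts in DS Ly6C-inter, 33 to 53 in the other Ly6C samples and 283 and 274 in MHCII+ cells, with 3 of 4 log2 ratios between -0.32 and 0.16.

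Other lower genes were highest in the Ly6C-low samples. Serpinb2, an inhibitor of plasminogen activators made by macrophages, had 87 and 22 counts in NS and DS Ly6C-low cells, 29 and 11 in Ly6C-inter cells and 7 and 9 in MHCII+ cells (edgeR log2 fold change -4.43 ± 1.03 SE, adjusted p = 0.0148). Tgm2, a protein-crosslinking transglutaminase, had 73 and 25, 20 and 10, and 8 and 8 counts in the same order (-4.39 ± 1.02 SE, adjusted p = 0.0148). Alox15, the lipoxygenase of eosinophils and some resident macrophages, had 25 and 9, 8 and 13, and 2 and 1 counts (-5.44 ± 0.93 SE, adjusted p = 0.00191). Olr1, a receptor for oxidized lipoprotein, and Vegfa, a vascular growth factor, had 39 and 26 counts in NS Ly6C-low cells and 7 to 13 in MHCII+ cells. Timd4, a receptor for dying cells on long-lived resident macrophages, did not pass the threshold (adjusted p = 0.0925 by edgeR). It had 31 and 13 counts in MHCII+ cells and 12 to 17 in the Ly6C samples, whose limits were 11.2 to 23.0. All 4 intervals lay below 0, with log2 ratios from -2.79 to -1.39. The negative control probes had a median log2 ratio of -2.41, and the part of background in the Timd4 ratios was not tested. Itgal and Lst1 passed the edgeR threshold, with no count above 16 in any of the 6 samples and nearly equal raw counts of 15, 15 and 16 for Itgal in the 3 NS samples. The edgeR log2 fold changes of Itgal and Lst1 changed sign with the positive controls, to 0.24 and 0.33.

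Ccr3, the eotaxin receptor, and Siglecf, a lectin of eosinophils and some macrophages, were also highest in NS Ly6C-low cells. Ccr3 had 25 counts there, 5 in DS Ly6C-low, 5 and 2 in Ly6C-inter and 1 in both MHCII+ samples (edgeR -5.34 ± 1.18 SE, adjusted p = 0.0118). Siglecf had 20, 7, 1 and 2, and 6 and 1 counts in the same order (-3.67 ± 1.07 SE, adjusted p = 0.0426). Of the mast cell, basophil and eosinophil list 2 of 10 measured genes were above a limit, both in NS Ly6C-low, and the list held 0.0832% and 0.0527% of the counts in MHCII+ cells against 0.289% to 1.14% in the Ly6C samples. The dump channel as described held no eosinophil marker. The part of other cell types in these calls was not tested.

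**Figure D4:**
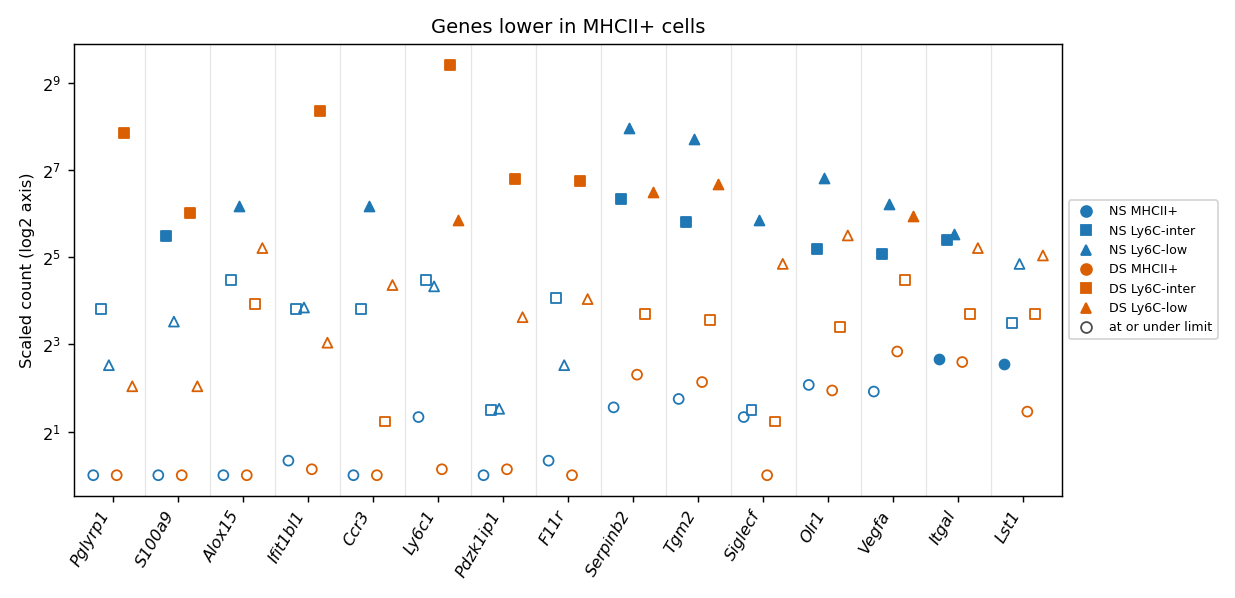
Scaled counts (log2 axis) of 15 of the 16 genes lower in MHCII+ cells by edgeR, with 1 point per pooled sample (circles MHCII+, squares Ly6C-inter, triangles Ly6C-low, blue NS, orange DS) and open symbols at or under the negative control limit. Most circles are open and near the floor of 1, and most genes have 1 to 3 filled symbols, often DS Ly6C-inter or NS Ly6C-low.

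The fold rule asked for a difference within both NS and DS, so the agreement of its genes between the conditions was set in advance. The edgeR calls took NS and DS together. At a log2 ratio of 2 in both pairs of a condition, with the higher side above the limit, 9 genes were higher and 5 lower within NS, and 10 higher and 1 lower within DS. No gene (0 of 309) was past that threshold one way in NS and the other way in DS, and 19 lay on opposite sides of 0 at any size. Within MHCII+ cells the class II genes differed little between NS and DS, with DS over NS ratios of the scaled counts of 1.01 for H2-Aa, 0.992 for H2-Ab1, 0.977 for H2-Eb1 and 0.996 for Cd74. That ratio was 1.23 for Ccr2, 1.06 for Fn1 and 0.785 for Retnla. With the 2 Ly6C pools of each condition in the place of replicates, a population by condition term in edgeR, added after seeing the data, passed the threshold for 0 of 309 genes (0%), with 8 at an unadjusted p under 0.05. That fit has 2 residual degrees of freedom and 1 MHCII+ pool per condition, and its standard errors were 1.66 for H2-Aa and 1.77 for Ccr2 on the log2 scale, so it could miss a sizeable change.

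**Figure D5:**
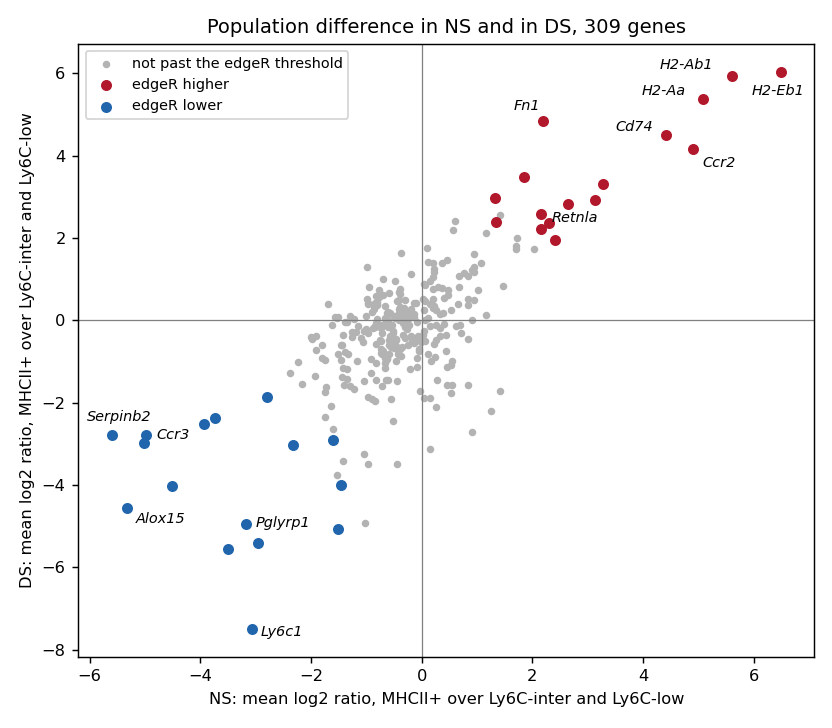
Mean log2 ratio of MHCII+ cells over Ly6C-inter and Ly6C-low cells in NS (horizontal axis) and in DS (vertical axis) for the 309 genes, with genes past the edgeR threshold in red (higher) and blue (lower). H2-Ab1, H2-Eb1, H2-Aa, Cd74 and Ccr2 lie above 4 on both axes, and all coloured points lie in the upper right or lower left of the plot. The coloured genes were called from NS and DS together, so their place is no separate result.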

How the data were processed

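RNA of sorted, pooled cells was hybridized by the authors to a NanoString panel of mouse myeloid genes. They deposited raw, unnormalized counts for 754 genes, 8 negative and 6 positive controls. No genome build is named. Genes, lists and the comparison were chosen with earlier results of these data known. Here the counts were scaled to equal totals over the 754 genes (target 16669), values under 1 were set to 1, and genes above the negative control mean + 2 SD in at least 1 of 6 samples were kept. Intervals are exact Clopper-Pearson (95%), covering counting error only. The test was edgeR 4.0.16 (quasi-likelihood, total counts as library size, condition block, Benjamini-Hochberg over 309 genes, R 4.3.3), with the standard error taken as the log2 fold change over the root of F. It has 3 residual degrees of freedom. Raw counts entered edgeR. DESeq2 1.42.0 was an alternative. The code was tested on simulated data. Genes were named as the 5 markers, up to 12 genes called each way by the fold rule, the 5 highest genes on each side, up to 4 genes per list by highest count and any gene reversing between NS and DS. Of 754 symbols, 744 matched a RefSeq symbol and 9 a synonym. Python 3.11.15 with pandas 2.3.3, scipy 1.17.1 and matplotlib 3.10.9 was used. Values of 2 genes are not reported here.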

Additional observations from a re-analysis of the deposited data

Results flagged for a closer look

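The Ly6C-high monocyte samples took no part in the comparison, and some leading genes exceeded the negative control limit there. Cd74 had 22 counts in NS and 48 in DS monocytes, and Fn1 had 20 and 29. In DS monocytes H2-Aa had 22 counts and Ccr2 had 15. The monocyte totals were 2728 (NS) and 3929 (DS) counts, with 24 and 52 genes above the limit. The MHCII+ totals were 39677 and 30335, so the raw counts are not directly comparable. As a share of the total, the MHC class II list, which holds Cd74 and H2-Aa, took 2.86% (NS) and 3.03% (DS) in monocytes. It took 31.3% and 31.1% in the MHCII+ samples. Ccr2 in DS monocytes also had a lower share than in DS MHCII+ cells, while Fn1 did not in either condition. The mean negative control count times the number of genes came to 180% (NS) and 101% (DS) of the monocyte totals. The part of background in these shares was not tested.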

How the results depend on the processing

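Under the fold rule (7 higher, 0 lower), the number of higher genes was 67 with the positive controls, 50 unscaled, 37 with the negative control mean subtracted, 12 with TMM, 11 with DESeq2 size factors, 18 at a log2 ratio of 1 and 13 with totals taken without the MHC class II list, Retnla and Emp1, a setting chosen after seeing the data. At a log2 ratio of 1, 2 genes (Emp1 and S100a11) were lower. Leaving out 1 sample gave 7 to 10 higher and 0 to 5 lower genes, 1 without NS MHCII+, 5 without DS MHCII+ and 3 without DS Ly6C-inter. By edgeR (16 and 16), 227 were higher and 1 lower with the positive controls, 7 were lower with TMM (19 higher), 10 with the reduced totals (22 higher) and 261 of 754 without the filter (20 higher). Leaving out 1 sample gave 5 to 18 higher and 1 to 38 lower genes, with 5 and 1 without NS Ly6C-inter, 6 and 1 without NS Ly6C-low, 5 and 5 without DS MHCII+, and 18 and 38 without DS Ly6C-inter, where a lone sample is assumed to vary like the rest. DESeq2's Wald test gave 17 and 15, and the fit without the condition block 16 and 17. Adgre1 reversed to 1.34, Itgal to 0.24 and Lst1 to 0.33 with the positive controls. The cause was not tested. At a log2 ratio of 2 in both pairs of a condition, 0 genes reversed between NS and DS under each of the 4 other scalings tried.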
